A study of Mus musculus with 6 samples.

Results

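The nuclear hormone receptors and the NCOA and NCOR coregulators were followed in RNA-seq libraries of mouse glioma cells in culture. Genes were taken by symbol, which gave 36 of the 12151 genes in the deposited table. Of these, 25 encode nuclear receptors and 9 belong to the Ncoa and Ncor families. The remaining 2, Esrp2 and Nr2c2ap, are neither and match the symbol pattern only. The mNS group had 3 libraries, at passages 72, 77 and 85 (numbered here as replicates 1 to 3), of neurospheres labelled as glioma stem-like cells. These cells grew in serum-free DMEM/F12 with B-27, basic FGF, EGF and heparin. The GL261 group had 3 libraries, at passages 17, 33 and 34 (numbered here as replicates 1 to 3), labelled as differentiated glioma cells. The GL261 cells grew in DMEM with fetal bovine serum. For the third GL261 library the passage field says 33 while the title says 34. Penicillin, streptomycin, HEPES, glutamine and β-mercaptoethanol were in both media. GL261 is a mouse glioma line. Neither group carries a hormone treatment in the labels. B-27 and serum are both known to carry hormones and lipids that bind nuclear receptors, and their amounts here are not given in the sources used. The cell line, the medium and the range of passages differ together between the groups and cannot be told apart. The labels do not say whether the libraries of a group came from separately derived cultures, and the p-values then reflect how far libraries of different passage vary, which may be technical.

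Nuclear receptors are transcription factors that bind DNA at short sequence elements, and many are switched by a small lipophilic ligand such as a steroid, a thyroid hormone, a retinoid or an oxysterol. RXR proteins are the shared partners with which thyroid hormone, vitamin D, retinoic acid, PPAR and LXR receptors pair on DNA. Bound receptors recruit coactivators of the NCOA family or corepressors of the NCOR family, which bring histone-modifying enzymes to the gene. In the brain these receptors are known for control of glial maturation, of lipid and cholesterol metabolism and of the circadian clock.

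The table lists 25 of the 49 mouse nuclear receptor genes. The other 24, among them the progesterone receptor gene Pgr, Thrb, Ppara, Pparg, Rarb, Rxrg and Nr2e1, are not listed in it and are not analysed here. Of the 6 receptors of steroid hormones 2 were listed, and of the 6 retinoid receptors 4. Values are CPM, that is, reads of a gene on a scale common to the libraries, with between 12534422 and 14225175 reads per library in listed genes. Differences are mNS minus GL261 on the log2(CPM + 1) scale, tested with limma, with Benjamini-Hochberg adjustment over 12006 genes. Calls are made where the adjusted p is under 0.05. Differences on this scale understate the change of low genes, and folds are ratios of the group means in CPM. Means are given ± SD over the 3 libraries of a group. Values per library are given in order of passage, and positions are those of GENCODE M21 in GRCm38. All 36 genes passed the filter on low values, with means over the 6 libraries from 1.78 to 330.5 CPM.

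The neurospheres and GL261 cells differed in the levels of many nuclear receptor transcripts, with about as many genes higher as lower. Ppard and Thra, which encode PPARδ and the thyroid hormone receptor α, were 2.88- and 2.67-fold higher in mNS. Vdr, Nr1d2, Esr1, Nr1d1 and Rxra, which encode the vitamin D receptor, REV-ERBβ, the estrogen receptor α, REV-ERBα and RXRα, were 2.29- to 7.97-fold lower. Among the coregulators, Ncoa3 was 2.60-fold higher and the NCOA genes that were called were all higher in mNS. Of the 36 genes, 26 were called, 13 higher and 13 lower, which is 72.2% against 64.3% of all genes tested. Over all genes 32.2% were called higher and 32.1% lower, so change as such does not set these genes apart. At least 2-fold and called were 4 higher genes and 5 lower genes, beside 11.3% and 8.47% of all genes tested. In 29 of the 36 genes (80.6%) the 3 mNS values and the 3 GL261 values did not overlap, against 69.9% of all genes. The median difference was 0.14 over the 36 genes and -0.0027 over all genes. In whole cultures, fewer cells that carry a transcript and less transcript per cell cannot be told apart.

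**Figure D1:**
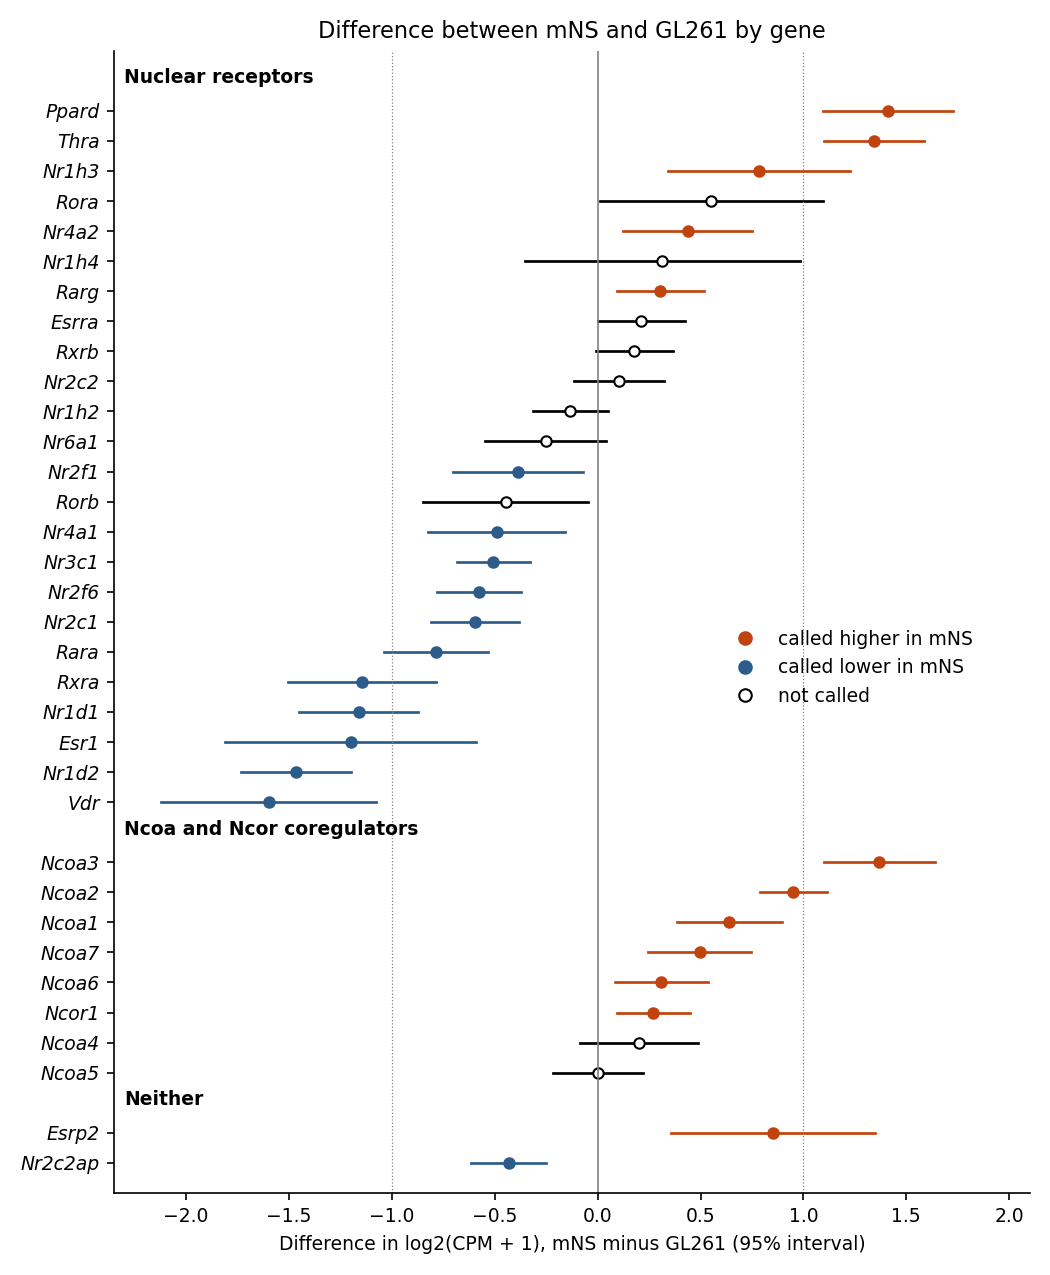
The log2 difference, mNS minus GL261 on the log2(CPM + 1) scale, is drawn for 34 of the 36 genes with its 95% interval from limma; points right of 0 are higher in mNS. Ppard (1.41), Ncoa3 (1.37) and Thra (1.34) lie farthest right, and Vdr (-1.60) and Nr1d2 (-1.46) farthest left.

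More receptors were called lower than higher in mNS, and more NCOA and NCOR genes higher. Of the 25 receptors, 6 were called higher and 11 lower (17 of 25, 68%), with a median difference of -0.25. That share is close to the background, since 64.3% of the 12006 genes had a call. In that background, 32.2% stood higher in mNS and 32.1% stood lower. The receptor split depended on the scaling, with 9 called higher and 10 lower when the columns were brought to a common sum. Of the 9 Ncoa and Ncor genes, 6 were called higher, with a median of 0.31. Summed over the 25 receptors, the libraries held 733.2 to 741.9 CPM in mNS and 836.4 to 879.2 CPM in GL261. Summed over the 9 coregulators, they held 701.2 to 769.4 CPM in mNS and 521.3 to 593.6 CPM in GL261. These are descriptions of the lists, and no test was made of the lists themselves.

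Neurosphere cells had less REV-ERB transcript than GL261 cells. REV-ERBα and REV-ERBβ, encoded by Nr1d1 and Nr1d2, are heme-binding repressors that act on clock and metabolic genes. The ROR proteins bind related elements and activate from them. Because both REV-ERB genes fell in mNS by a similar fold, the 250 bases before their RefSeq starts are shown, 5′ to 3′ on the gene's strand and from the GRCm38.p6 table of RefSeq. Capitals mark the nuclear receptor half-site AGGTCA, searched on both strands as AGGTCA or TGACCT. The Nr1d1 window is chr11:98775378-98775627 and the Nr1d2 window chr14:18239107-18239356, both on the minus strand.
Nr1d1: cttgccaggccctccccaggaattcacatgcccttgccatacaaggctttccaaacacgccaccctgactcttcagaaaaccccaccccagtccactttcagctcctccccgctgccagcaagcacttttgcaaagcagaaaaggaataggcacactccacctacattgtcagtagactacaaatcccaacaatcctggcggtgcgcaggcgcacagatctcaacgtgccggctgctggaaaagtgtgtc
Nr1d2: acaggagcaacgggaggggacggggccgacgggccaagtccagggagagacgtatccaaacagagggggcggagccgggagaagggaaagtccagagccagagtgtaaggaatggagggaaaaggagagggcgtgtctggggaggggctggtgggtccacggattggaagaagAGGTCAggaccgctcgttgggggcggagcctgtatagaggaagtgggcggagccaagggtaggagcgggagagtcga
The Nr1d2 window holds 1 half-site and the Nr1d1 window none. Neither holds the E-box CACGTG or the D-box TTATGTAA in either orientation (TTACATAA on the other strand). Among 32851 promoter windows of the same length, 14.0% hold a half-site, 6.02% an E-box and 0.819% a D-box. A match is a description of the letters in the window, and the absence of one says nothing of a factor. Of the 36 genes, 29 matched a window, and some matched more than 1, which gave 44 windows. A half-site is in 6 of the 44 windows, the count to set beside the 14.0% of all windows. These windows belong to 6 of the 29 genes: Ncoa4, Nr1d2, Nr1h4, Nr6a1, Rarg and Rxra. Rara alone has an E-box, and none of the 29 has a D-box.

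Nr1d2 (chromosome 14, 18204054 to 18239127, minus strand) had 45.5, 33.9 and 34.6 CPM in the mNS libraries, against 97.9, 111.5 and 108 CPM in the GL261 libraries. The lowest GL261 value lay above every mNS value, and the difference was -1.46 ± 0.12 (SE, limma adjusted p = 9.81e-06), 2.79-fold lower in mNS. Its relative Nr1d1 (chromosome 11, 98767932 to 98775333, minus strand) had 2.42, 2.40 and 2.20 CPM in the mNS libraries, against 6.19, 6.20 and 7.01 CPM in the GL261 libraries. The groups stood apart with little spread within either, and Nr1d1 was 2.77-fold lower in mNS (difference -1.16 ± 0.13, limma adjusted p = 6.26e-05). Its values rest on 94 reads in mNS and 263 reads in GL261.

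The ROR genes Rora and Rorb were not called. Rora, which is known for its part in cerebellar development, averaged 3.71 ± 0.582 CPM in mNS and 2.31 ± 1.10 CPM in GL261 (difference 0.55, limma adjusted p = 0.0699). Rorb averaged 7.61 ± 1.77 CPM in mNS and 10.6 ± 1.39 CPM in GL261 (difference -0.45, limma adjusted p = 0.0507). Both sit near the threshold. Without GL261 replicate 1, Rora was called higher (limma adjusted p = 0.00624) and Rorb lower (0.0313), and Rorb was also called without mNS replicate 1 (0.0226). Over all alternatives the adjusted p ran from 0.000169 to 0.247 for Rora and from 0.00251 to 0.157 for Rorb.

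**Figure D2:**
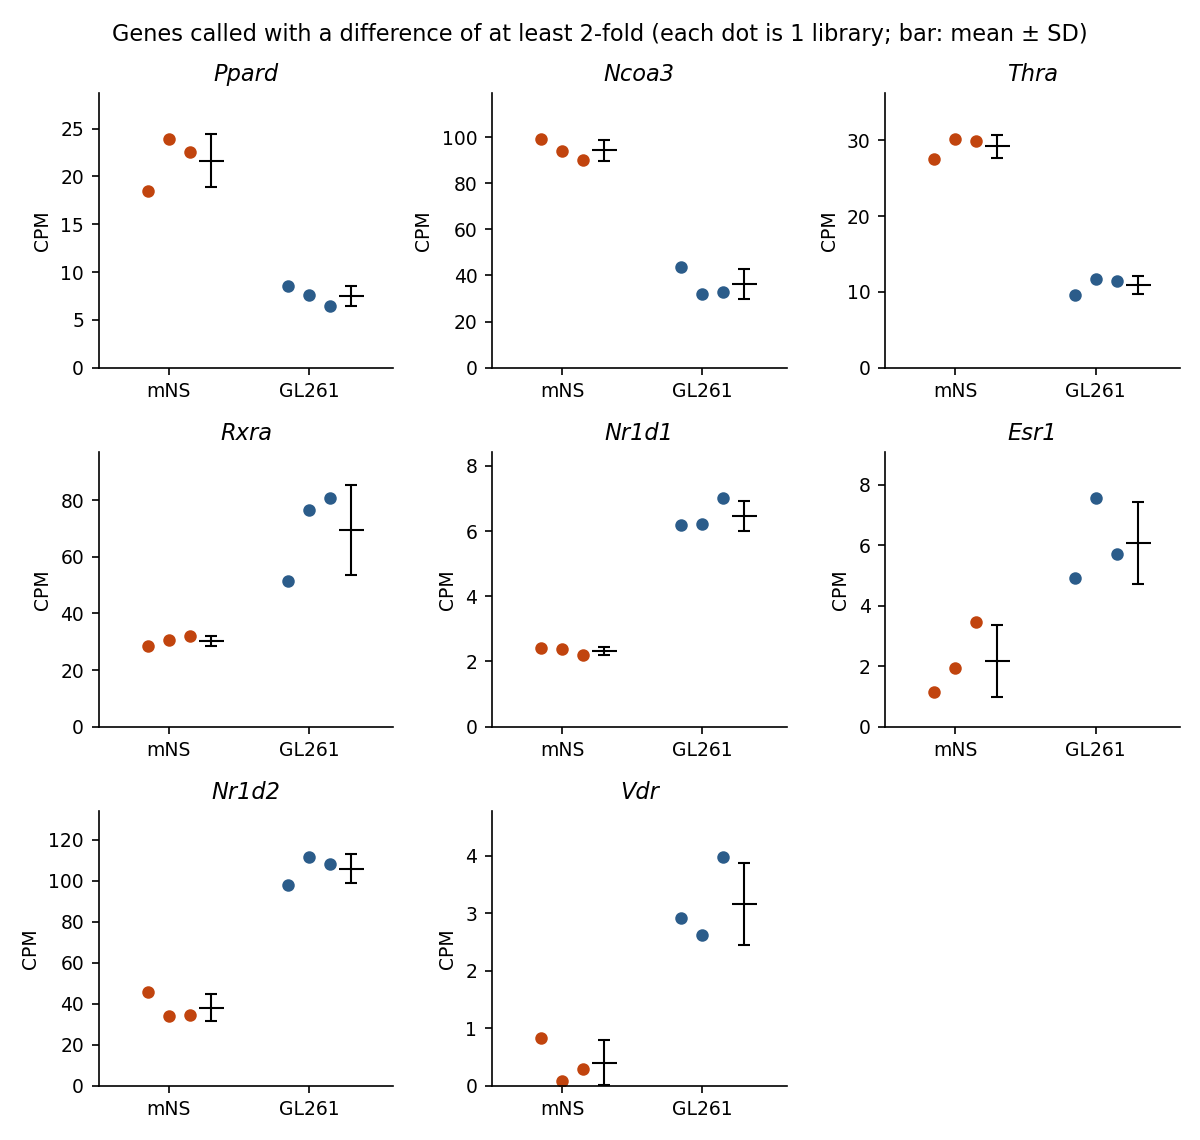
CPM in each library (dots, in order of passage) with the mean and SD of each group (bars), mNS left of GL261, for 8 genes called with at least a 2-fold difference on the log2(CPM + 1) scale. The points of the groups do not overlap in any panel; Vdr has the widest relative spread, with mNS values from 0.0773 to 0.830 CPM.

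The clock genes that REV-ERB and ROR proteins are known to act on were split. Of 6 such genes tested, 3 were called higher and 3 lower, with a median of -0.09. Arntl, which encodes the clock activator BMAL1 and is a known REV-ERB target, averaged 7.19 ± 0.526 CPM in mNS and 29.1 ± 2.92 CPM in GL261 (difference -1.88, limma adjusted p = 1.71e-06). Cry1, a repressor of the clock activators, averaged 43.3 ± 3.57 CPM in mNS and 11.9 ± 0.324 CPM in GL261 (difference 1.78, limma adjusted p = 8.41e-07). Arntl was lower in the libraries in which both genes of its known repressors were lower. Whether the levels of these genes depend on each other was not tested. Time of day and serum changes, which set the phase of this loop, are not given in the labels.

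Thyroid hormone receptor transcripts were higher and vitamin D receptor transcripts lower in mNS. Thra (chromosome 11, 98740638 to 98769006), whose receptor binds triiodothyronine and acts in the maturation of oligodendrocytes and neurons, had 27.5, 30.2 and 29.9 CPM in the mNS libraries, against 9.62, 11.7 and 11.5 CPM in the GL261 libraries. Both groups were tight and far apart, with a 2.67-fold higher mean in mNS (difference 1.34 ± 0.11, limma adjusted p = 9.40e-06). Thra and Nr1d1 lie tail to tail on opposite strands and share 263 bases of exon, 8.5% of the exons of Nr1d1 and 5.7% of those of Thra. The kit keeps the strand, but the strand setting used in counting is not given in these sources. Their differences had opposite signs. Gene-level values do not separate the hormone-binding product of Thra from its non-binding splice form, the one whose end overlaps Nr1d1.

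Vdr (chromosome 15, 97854425 to 97910630, minus strand) encodes the receptor for the active form of vitamin D. It had 0.830, 0.0773 and 0.283 CPM in the mNS libraries, against 2.91, 2.62 and 3.97 CPM in the GL261 libraries. It was close to the limit of detection in mNS, with 16 reads in all against 129 reads in GL261, and no values overlapped. The difference was -1.60 ± 0.23 (limma adjusted p = 0.000331), a 7.97-fold lower mean in mNS. Without mNS replicate 1, which held most of the mNS reads, the fold was 17.6.

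Genes that carry and answer to thyroid hormone moved with no single direction. Of 9 genes for transport and conversion of the hormone, 3 are listed, and 2 of these were called higher and none lower. Slc7a5, the gene of the amino acid transporter LAT1 that also carries the hormone, was higher by 0.50 on the log2 scale. Of 7 genes known to respond to thyroid hormone, none was called higher and 5 were called lower, with a median of -1.45. Mbp, which encodes myelin basic protein, averaged 33.7 ± 10.3 CPM in mNS and 763 ± 33.3 CPM in GL261 (difference -4.50, limma adjusted p = 1.22e-07). Hr, a corepressor that binds thyroid hormone receptors and whose gene responds to the hormone in rodent brain, averaged 8.24 ± 4.36 CPM in mNS and 53.2 ± 4.68 CPM in GL261 (difference -2.65, limma adjusted p = 4.68e-05). Me1, the gene of cytosolic malic enzyme, averaged 34.7 ± 5.34 CPM in mNS and 114 ± 35.7 CPM in GL261 (difference -1.66, limma adjusted p = 0.000106). Mbp is also an oligodendrocyte marker. That marker list, Mbp included, did not move as 1 group. Of its 7 genes 6 are listed and 5 were tested, with 3 called higher and 2 lower, and the listed genes summed to 274.0 to 299.9 CPM in mNS and 889.2 to 961.1 CPM in GL261. The part of these cells in the result was not tested.

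Ppard, the only PPAR gene in the table, was higher in mNS, while most of the lipid-oxidation genes tied to PPARs were lower. PPARδ binds fatty acids and controls their uptake and oxidation. Ppard (chromosome 17, 28232700 to 28301474) had 18.5, 23.9 and 22.6 CPM in the mNS libraries, against 8.5, 7.62 and 6.43 CPM in the GL261 libraries. The lowest mNS value was more than 2-fold above the highest GL261 value. Its mean was 2.88-fold higher in mNS (difference 1.41 ± 0.14, limma adjusted p = 3.47e-05). Of 14 genes known as PPAR targets, 4 were called higher and 8 lower, with a median of -0.46. Angptl4, a secreted inhibitor of lipoprotein lipase and a sensitive PPARδ target, averaged 0.272 ± 0.0362 CPM in mNS and 22.1 ± 0.847 CPM in GL261. That is 11 reads against 899 reads and 81.2-fold lower in mNS (difference -4.18, limma adjusted p = 3.52e-08). Cpt1a, whose enzyme brings fatty acids into mitochondria, averaged 10.3 ± 1.89 CPM in mNS and 31.0 ± 4.18 CPM in GL261 (difference -1.51, limma adjusted p = 3.26e-05). Slc25a20, the carnitine-acylcarnitine carrier of the same route, averaged 7.66 CPM in mNS and 19.3 CPM in GL261 (difference -1.23, limma adjusted p = 8.77e-06). The 4 that were higher were Cat, Ehhadh, Acadm and Acaa2, whose products act in peroxisomal or mitochondrial oxidation, with differences from 0.28 to 0.57.

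**Figure D3:**
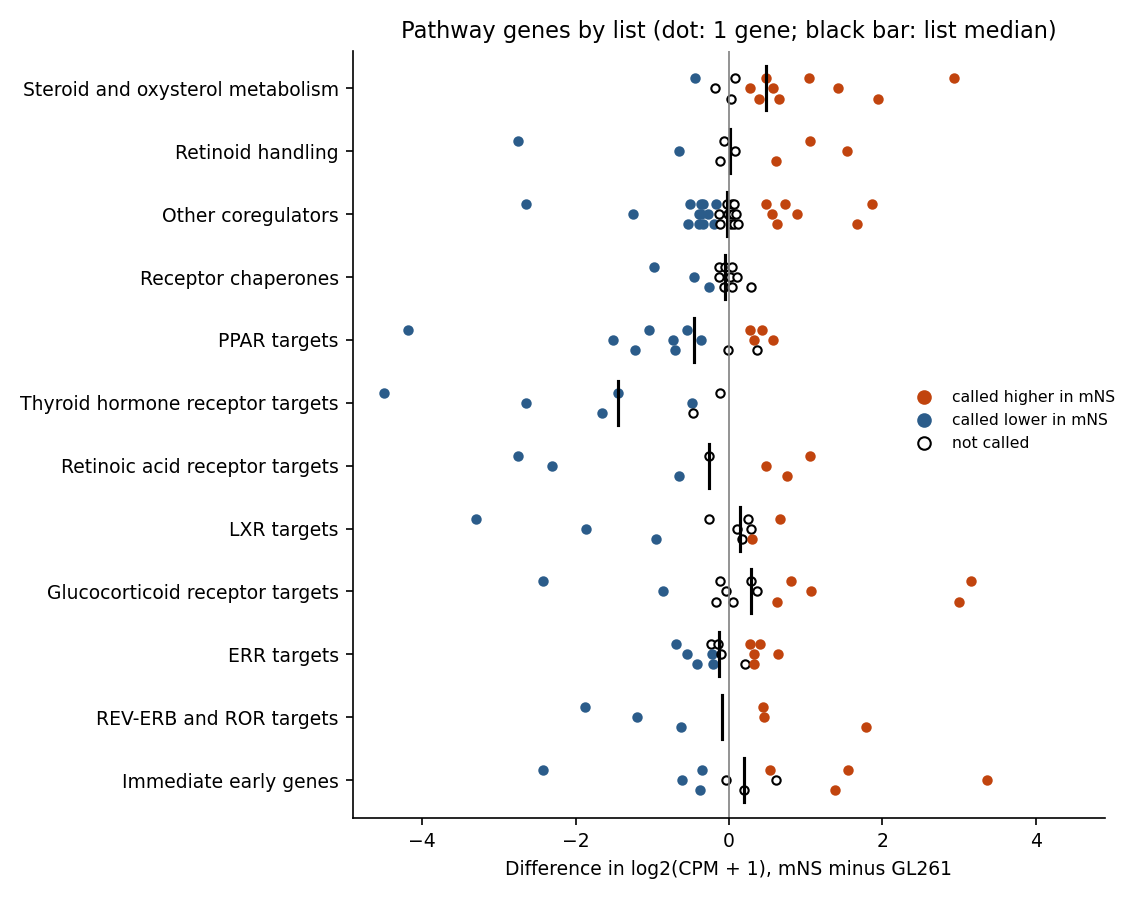
Each point is 1 gene of a list drawn at its log2 difference, mNS minus GL261 on the log2(CPM + 1) scale, with the median of each list as a bar; orange is called higher, blue called lower and open not called. The list of thyroid hormone handling genes is not drawn. Among the 12 lists drawn, the thyroid hormone targets have the lowest median (-1.45), and the steroid and oxysterol list the highest (0.49).

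Among retinoid receptors, Rxra and Rara were lower in mNS, Rarg was slightly higher and Rxrb was not called. RAR proteins bind retinoic acid, a differentiation signal in the nervous system, and work as pairs with RXR. Rxra (chromosome 2, 27676440 to 27762957) had 28.4, 30.5 and 32.1 CPM in the mNS libraries, against 51.4, 76.5 and 80.7 CPM in the GL261 libraries. The mNS values were tight and all below the lowest GL261 value, that of passage 17. The mean was 2.29-fold lower in mNS (difference -1.15 ± 0.16, limma adjusted p = 0.000267). Rara averaged 11.4 ± 1.40 CPM in mNS and 20.2 ± 0.523 CPM in GL261 (difference -0.78, limma adjusted p = 0.000313). Rarg averaged 72.3 ± 8.40 CPM in mNS and 58.1 ± 1.86 CPM in GL261 (difference 0.30, limma adjusted p = 0.0187). That call was lost without mNS replicate 2 or 3 or GL261 replicate 2 (adjusted p from 0.0655 to 0.0749) and ran from 4.76e-05 to 0.0749 over all alternatives. Rxrb, with 52.2 ± 3.21 CPM in mNS and 46.0 ± 3.01 CPM in GL261, had a difference of 0.18 with a 95% interval from -0.01 to 0.37 (limma adjusted p = 0.0856). The mNS values of Rxrb were all above the GL261 values, by less than 1 CPM at the closest.

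Retinoid metabolism differed between the groups at single genes. Of 19 genes that make, carry or break down retinoids, 8 are listed, of which 3 were called higher and 2 lower (median 0.01). Cyp26b1, which encodes an enzyme that clears retinoic acid and is itself switched on by it, averaged 2.32 ± 0.323 CPM in mNS and 21.3 ± 1.97 CPM in GL261, 9.16-fold lower in mNS (difference -2.75, limma adjusted p = 4.20e-07). Fabp5, a fatty acid binding protein that can deliver ligand to PPARδ, averaged 88.3 ± 32.8 CPM in mNS and 28.4 ± 3.85 CPM in GL261 (difference 1.53, limma adjusted p = 0.000881). Dhrs3, a retinaldehyde reductase, averaged 10.2 ± 3.74 CPM in mNS and 4.22 ± 0.940 CPM in GL261 (difference 1.05, limma adjusted p = 0.00721). Of 7 listed retinoic acid target genes, 3 were called higher and 3 lower (median -0.26), and 3 of the 7 also stand in the handling list. Tgm2, the transglutaminase that retinoic acid induces in many cells, averaged 12.2 ± 2.08 CPM in mNS and 65.5 ± 17.9 CPM in GL261 (difference -2.31, limma adjusted p = 1.03e-05).

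Of the oxysterol and bile acid receptors, Nr1h3 alone was called. It encodes LXRα, which senses oxysterols and switches on sterol export and fatty acid synthesis. It had 16.8, 26.3 and 28.7 CPM in the mNS libraries, against 13.8, 11.2 and 14.6 CPM in the GL261 libraries. The mNS library of passage 72 lay close to the GL261 values and the other mNS libraries well above them (difference 0.78, limma adjusted p = 0.00704, 1.81-fold). Nr1h2, the gene of LXRβ, was among the best represented receptors per length in both groups. Its means were 55.1 ± 1.84 CPM in mNS and 60.6 ± 4.9 CPM in GL261, a difference of -0.13 with a 95% interval from -0.31 to 0.05 (limma adjusted p = 0.172). It has a pseudogene, Nr1h2-ps, and reads shared with it could be split. Nr1h4, which encodes the bile acid receptor FXR, had 2.29 ± 1.02 CPM in mNS and 1.62 ± 0.745 CPM in GL261 (difference 0.31, limma adjusted p = 0.369).

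Genes of steroid and oxysterol metabolism, a list not limited to genes that make these compounds, were mostly higher in mNS. Of 13 tested, 9 were called higher and 1 lower, with a median of 0.49. Ch25h, the cholesterol 25-hydroxylase gene that yields an LXR ligand, had 7.0 ± 2.79 CPM in mNS and no read in any GL261 library, at least 31.6-fold higher in mNS against a floor of 3 reads per library. Cyp27a1, which makes another oxysterol, averaged 8.43 ± 1.75 CPM in mNS and 1.51 ± 0.787 CPM in GL261 (difference 1.94, limma adjusted p = 0.000138). Cyp51, a step of cholesterol synthesis, averaged 552 ± 53.5 CPM in mNS and 205 ± 19.5 CPM in GL261 (difference 1.43, limma adjusted p = 2.61e-06). The 1 that fell was Tspo, the mitochondrial translocator protein gene (difference -0.44). LXR target genes gave no common direction, with 2 called higher and 3 lower of 10 tested and a median of 0.14. Pltp, which encodes the phospholipid transfer protein, had 4 reads in mNS and 429 reads in GL261 (difference -3.30, limma adjusted p = 1.38e-05). Arl4c, a small GTPase gene, was 6.37-fold lower in mNS (difference -1.86, limma adjusted p = 0.0262), a fold of 3.87 without GL261 replicate 3. Its call was lost without mNS replicate 2 or 3 or GL261 replicate 2 or 3 (adjusted p from 0.0649 to 0.0891, against 1.31e-05 to 0.0891 over all alternatives). Scd1, the stearoyl-CoA desaturase gene, fell by 0.95 on the log2 scale in mNS, while Fasn, the fatty acid synthase gene, was higher by 0.67. Without mNS replicate 2, GL261 replicate 2 or GL261 replicate 3, 3 of the LXR targets were called in place of 5.

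Both steroid hormone receptors in the table were lower in mNS. Esr1 (chromosome 10, 4611593 to 5005614), which encodes the estrogen receptor α, had 1.13, 1.93 and 3.47 CPM in the mNS libraries, against 4.92, 7.55 and 5.71 CPM in the GL261 libraries. Its values were low and spread widely, yet no mNS value reached the lowest of GL261. The mean was 2.78-fold lower in mNS, on 89 reads against 246 reads (difference -1.20 ± 0.27, limma adjusted p = 0.00401). Nr3c1, which encodes the glucocorticoid receptor, stood at 8.37 CPM per kb of exon in mNS and 12 in GL261, against 0.160 and 0.444 CPM per kb for Esr1 in the same groups, and its difference was smaller. It had 65.2, 64.2 and 63.4 CPM in the mNS libraries, against 83.1, 94.9 and 97.8 CPM in the GL261 libraries. The mNS values were nearly alike and all below those of GL261 (difference -0.51 ± 0.08, limma adjusted p = 0.000466, 1.43-fold lower).

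Genes that glucocorticoids are known to induce went in both directions, with 5 called higher and 2 lower of 13 tested and a median of 0.28. Sgk1, a kinase gene that the glucocorticoid receptor switches on directly, averaged 173 ± 16.7 CPM in mNS and 18.5 ± 2.02 CPM in GL261, 9.37-fold higher in mNS (difference 3.16, limma adjusted p = 5.42e-08). Lcn2, the gene of the iron-siderophore carrier lipocalin 2, averaged 10.2 ± 6.19 CPM in mNS and 0.221 ± 0.127 CPM in GL261 (difference 3.0, limma adjusted p = 0.000316). Dusp1, which encodes a MAP kinase phosphatase and is also an immediate early gene, averaged 21.7 ± 4.30 CPM in mNS and 120 ± 2.61 CPM in GL261 (difference -2.43, limma adjusted p = 7.67e-07). Tsc22d3, the gene of the glucocorticoid-induced leucine zipper protein, was higher by 0.62, and Fkbp5 was not called (difference 0.28). The chaperones that hold steroid receptors ready for ligand were mostly not called. Of 12 tested, none was called higher and 3 were called lower, with a median of -0.06. Bag1, a cochaperone that binds Hsp70, averaged 92.2 ± 2.64 CPM in mNS and 183 ± 8.15 CPM in GL261 (difference -0.98, limma adjusted p = 2.21e-06). Ptges3, which encodes the p23 cochaperone, and Ahsa1, an activator of Hsp90, differed by -0.45 and -0.26. Ptges3 lost its call without mNS replicate 2 or 3 or GL261 replicate 2 and under 2 of the rescalings (limma adjusted p from 0.0511 to 0.0843, against 0.000502 to 0.0843 over all alternatives). Ahsa1 lost its call after quantile normalisation (0.0523, against 1.96e-05 to 0.0523 over all alternatives).

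The estrogen-related orphan receptor gene Esrra, known for control of mitochondrial genes, was not called. Its means were 40.0 ± 3.95 CPM in mNS and 34.3 ± 1.13 CPM in GL261, a difference of 0.21 with a 95% interval from 0.00 to 0.42 (limma adjusted p = 0.0737). Without mNS replicate 1, its lowest mNS library, it was called higher (limma adjusted p = 0.0135). Over all alternatives the adjusted p ran from 0.00116 to 0.234. Of 14 genes tied to it, a list that includes Esrra itself, 5 were called higher and 5 lower, none at least 2-fold (median -0.13). Sdhb, a succinate dehydrogenase subunit gene, had a difference of -0.69, Cycs, the cytochrome c gene, 0.63, and Mfn2, the mitofusin 2 gene, -0.54.

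The NR4A receptors act without a known hormone and are induced within minutes by growth factors. Nr4a1 (NUR77) averaged 59.4 ± 8.10 CPM in mNS and 84.4 ± 16.9 CPM in GL261 (difference -0.49, limma adjusted p = 0.0168). This call was lost without mNS replicate 2 (adjusted p = 0.066, against 5.42e-05 to 0.066 over all alternatives). Nr4a2 (NURR1), which is needed for midbrain dopamine neurons, averaged 4.71 ± 0.356 CPM in mNS and 3.23 ± 0.434 CPM in GL261 (difference 0.44, limma adjusted p = 0.0213). Its call was lost without mNS replicate 2 or 3 or GL261 replicate 2 or 3 (limma adjusted p from 0.0605 to 0.0769), in DESeq2 (0.0902) and after quantile normalisation (0.174), and over all alternatives the adjusted p ran from 0.000194 to 0.174. In both genes the groups stood apart without overlap. Other immediate early genes were split, with 4 called higher and 4 lower of 11 tested (median 0.20). Btg2, an antiproliferative gene, averaged 108 ± 3.05 CPM in mNS and 9.62 ± 1.43 CPM in GL261 (difference 3.37, limma adjusted p = 5.31e-08). Ier3 averaged 114 ± 38.8 CPM in mNS and 36.7 ± 6.50 CPM in GL261 (difference 1.56, limma adjusted p = 0.000584).

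Of the 4 NR2 receptors listed, 3 were lower in mNS and 1 was not called. Nr2c1, the testicular receptor 2 gene, averaged 18.6 ± 0.490 CPM in mNS and 28.7 ± 2.39 CPM in GL261 (difference -0.60, limma adjusted p = 0.000557). Nr2f6, an orphan receptor gene of the COUP-TF group, averaged 35.3 ± 3.66 CPM in mNS and 53.0 ± 1.26 CPM in GL261 (difference -0.58, limma adjusted p = 0.000527). Nr2f1, which encodes COUP-TFI, a regulator of cortical patterning, averaged 8.44 ± 1.3 CPM in mNS and 11.3 ± 1.16 CPM in GL261 (difference -0.39, limma adjusted p = 0.0352). This last call was lost without mNS replicate 2 or 3 or GL261 replicate 2 or 3 (limma adjusted p from 0.0565 to 0.123), with columns brought to a common sum (0.0841) and in DESeq2 (0.0699), and the adjusted p ran from 0.00152 to 0.123 over all alternatives. Nr2c2, the testicular receptor 4 gene, had 116 ± 11.6 CPM in mNS and 108 ± 10.4 CPM in GL261 (difference 0.10, 95% interval from -0.12 to 0.32, limma adjusted p = 0.369). Exons of Nr2f6 overlap those of Ocel1 on the opposite strand over 54.4% of their length, and exons of Nr2c2 overlap Mrps25 over 30.7%. Neither partner was called (Ocel1 difference -0.17 and Mrps25 difference 0.06). Nr6a1, the germ cell nuclear factor gene, was not called, with 17.9 ± 1.06 CPM in mNS and 21.7 ± 3.81 CPM in GL261 (difference -0.25, limma adjusted p = 0.117).

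Compared per length of annotated exon, the receptors with the highest levels were Nr4a1, Nr1h2, Rarg, Nr2f6 and Nr1d2, at 20.5, 17.3, 15.3, 14.8 and 13.3 CPM per kb over the 6 libraries. In mNS the order was Rarg (17.0 ± 1.97 CPM per kb), Nr4a1 (16.9 ± 2.31), Nr1h2 (16.4 ± 0.549), Rxrb (13.2 ± 0.809) and Nr2f6 (11.8 ± 1.23). The first 3 of these lay within 1 SD of each other. In GL261 the order was Nr4a1 (24.1 ± 4.83 CPM per kb), Nr1d2 (19.6 ± 1.32), Nr1h2 (18.1 ± 1.46) and Nr2f6 (17.8 ± 0.423). There Nr1d2 lay within 1 SD of Nr4a1, and Nr1h2 and Nr2f6 within 1 SD of each other. The lowest levels over the 6 libraries were those of Rora (0.231 CPM per kb), Esr1 (0.302) and Vdr (0.315). Counting all 36 genes, the 5 highest were Nr2c2ap (36.6 CPM per kb), Ncor1 (25.8), Nr4a1, Nr1h2 and Ncoa5 (16.3). Lengths are those of all annotated exons, so a gene whose cells use a short isoform is understated.

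**Figure D4:**
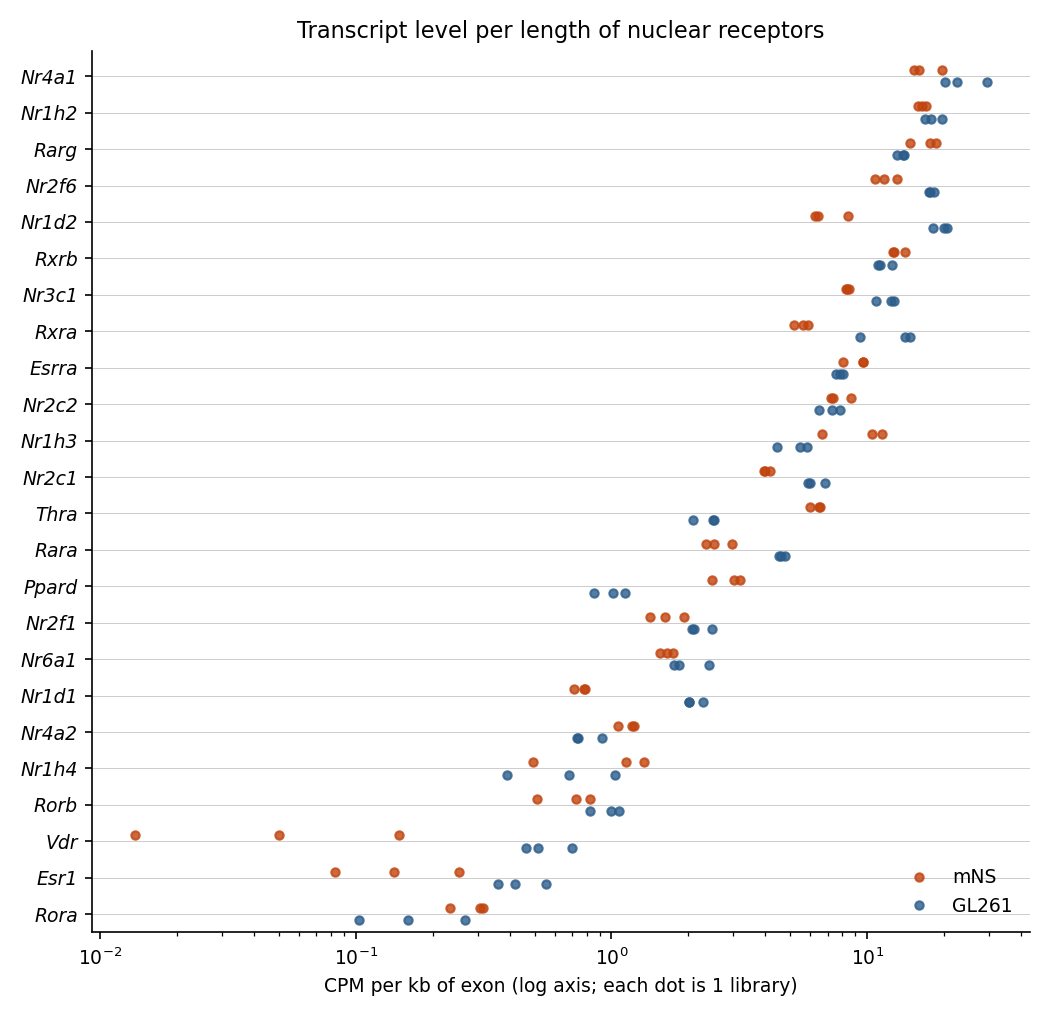
Level of 24 receptors in CPM per kb of annotated exon, on a log axis, with 1 dot per library, mNS in orange above GL261 in blue, ordered by the mean over the 6 libraries. Nr4a1, Nr1h2 and Rarg stand at the top, and the 3 mNS dots of Nr1d2 lie well left of its GL261 dots.

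Most of the NCOA coactivators were higher in mNS. NCOA1, NCOA2 and NCOA3 form the p160 family, which docks on hormone-bound receptors and brings in acetyltransferases. Ncoa3 (chromosome 2, 165992636 to 166073242) had 99.1, 93.8 and 89.9 CPM in the mNS libraries, against 43.7, 32.1 and 32.9 CPM in the GL261 libraries. The lowest mNS value was more than 2-fold above the highest GL261 value, and the mean was 2.60-fold higher in mNS (difference 1.37 ± 0.12, limma adjusted p = 1.51e-05). Ncoa2 averaged 82.0 ± 3.85 CPM in mNS and 42.0 ± 1.58 CPM in GL261 (difference 0.95, limma adjusted p = 6.68e-06). Ncoa1 averaged 40.5 ± 4.15 CPM in mNS and 25.7 ± 3.0 CPM in GL261 (difference 0.64, limma adjusted p = 0.00104). All 3 p160 genes were therefore higher in mNS, by 1.58- to 2.60-fold, with no overlap of the groups.

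The other NCOA genes, which are not p160 proteins, differed less. Ncoa7, which also has a role in resistance to oxidative stress, averaged 20.3 ± 1.34 CPM in mNS and 14.1 ± 1.38 CPM in GL261 (difference 0.50, limma adjusted p = 0.00377). Ncoa6, a subunit of a histone methyltransferase complex, averaged 34.2 ± 1.02 CPM in mNS and 27.5 ± 3.20 CPM in GL261 (difference 0.31, limma adjusted p = 0.0229). The Ncoa6 call was lost without mNS replicate 2 or 3 or GL261 replicate 2 or 3 (adjusted p from 0.0672 to 0.0808), and its adjusted p ran from 0.000215 to 0.0808 over all alternatives. Ncoa4, better known as the receptor for autophagy of ferritin, had 12.9 ± 0.135 CPM in mNS and 11.2 ± 1.64 CPM in GL261 (difference 0.20, 95% interval from -0.08 to 0.49, limma adjusted p = 0.188). Ncoa5 had 71.6 ± 7.32 CPM in mNS and 71.5 ± 5.92 CPM in GL261, with an interval of the difference from -0.22 to 0.22 (limma adjusted p = 0.991). Ncor1, whose product is a corepressor that holds unliganded receptors silent through HDAC3, averaged 361 ± 16.9 CPM in mNS and 300.0 ± 28.3 CPM in GL261 (difference 0.27, limma adjusted p = 0.0141).

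Coregulators outside the NCOA and NCOR families were called lower more often than higher. Of 31 tested, 7 were called higher and 13 lower, with a median of -0.03. Med14, a Mediator subunit gene, averaged 219 ± 37.8 CPM in mNS and 58.9 ± 5.14 CPM in GL261 (difference 1.87, limma adjusted p = 2.63e-06). Ppargc1a, which encodes the coactivator PGC-1α of mitochondrial biogenesis, averaged 2.58 ± 0.452 CPM in mNS and 0.122 ± 0.111 CPM in GL261, 21.1-fold higher in mNS and 34.5-fold without GL261 replicate 3 (difference 1.67, limma adjusted p = 4.33e-05). Hr, given above among the thyroid hormone targets, was the largest fall in the list. Hdac3, Gps2 and Tbl1x, which work in the NCOR complex, fell by 0.39, 0.54 and 0.34 on the log2 scale in mNS, and Tbl1xr1, of the same complex, was higher by 0.74.

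The 2 genes taken by the symbol pattern that are not receptors were both called. Esrp2, an epithelial splicing regulator, averaged 3.12 ± 1.17 CPM in mNS and 1.23 ± 0.242 CPM in GL261 (difference 0.85, limma adjusted p = 0.00800). Nr2c2ap, whose product binds the testicular receptor 4, averaged 50.6 ± 4.11 CPM in mNS and 68.6 ± 2.20 CPM in GL261 (difference -0.43, limma adjusted p = 0.00141). Exons of Nr2c2ap overlap those of Rfxank on the opposite strand over 82.4% of their length, and Rfxank was not called (difference -0.17).

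The labelled cell types were set against marker genes. Of 9 neural and glioma stem markers, 6 are listed, of which 3 were called higher and 2 lower, and they summed to 5037 to 5696 CPM in mNS and 8433 to 9432 CPM in GL261. Vim, Nes and Olig2, the 3 with the highest means, differed by -0.98, -0.69 and 5.57. Olig2, a transcription factor of glial progenitors, was thus far higher in mNS, while the intermediate filament genes Vim and Nes were higher in GL261. Vim and Nes, the 2 called lower in mNS, set the order of the sums. Vim averaged 3659 CPM in mNS and 7257 CPM in GL261, and Nes 955 and 1518 CPM. Olig2, 1 of the 3 called higher, averaged 437 CPM in mNS and 8.54 CPM in GL261. Prom1 and Hes5 are not listed. Markers of other cell types were few. Of 10 microglia and macrophage markers, Cd68 and Csf1r are listed, summing to 6.87 to 9.51 CPM in mNS and 4.05 to 5.44 CPM in GL261. They went opposite ways. Cd68 averaged 8.09 CPM in mNS and 2.95 CPM in GL261. Csf1r, too low to be tested, had 2 reads in mNS and 68 reads in GL261. Of 7 endothelial markers only Flt1 is listed, at 26.1 to 31.3 CPM in mNS and 24.7 to 42.5 CPM in GL261. Of 7 astrocyte markers 5 are listed, 1 called higher and 3 lower, summing to 207.1 to 287.7 CPM in mNS and 330.2 to 510.1 CPM in GL261. Aldh1l1, 1 of the 3 called lower, had no read in mNS. Slc1a3, the 1 called higher, averaged 89.5 CPM in mNS and 29.1 CPM in GL261. Of 8 neuron markers 3 are listed, 2 called higher and 1 lower, summing to 239.8 to 251.5 CPM in mNS and 372.3 to 383.0 CPM in GL261. Tubb3 sets that order, with 8.85 ± 4.43 CPM in mNS and 234 ± 11.7 CPM in GL261, while Map2 had 229 ± 3.58 CPM in mNS and 144 ± 17.0 CPM in GL261, and Syt1 had 6.38 ± 1.75 CPM in mNS and 0.767 ± 0.291 CPM in GL261. Their part in the receptor differences was not tested.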

How the data were processed

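RNA of 6 cultures was measured by stranded, ribosomal RNA-depleted, single-read sequencing, per the labels. The deposited signal is CPM scaled by the authors with TMM factors, and the notes of the submitters name TopHat2 2, HTSeq 0.5.3p9, edgeR 3.4.2 and mm10, with no role. Values were whole multiples of 1 read within 0.001 reads for 100% of the table, so reads were recovered. The main test was limma 3.58.1 (R 4.3.3) with trend, two-sided, on log2(CPM + 1), over the 12006 genes that averaged 1 CPM or more. edgeR 4.0.16 called 7651 genes on the recovered reads by quasi-likelihood, 7702 by its exact test, and DESeq2 1.42.0 called 7353. The 19 alternatives also varied pseudocount, filter, scaling, weights, threshold and the libraries kept. The fits were also run on simulated data in which few genes differed. Many more were called here, so that run does not bear on the choice of scaling. Positions, exon lengths and overlaps come from GENCODE M21 (GRCm38). The genes and lists were chosen with earlier results of these data known. Of 234 list symbols, 166 are listed. Named in full are called genes with a difference of at least 1; in other lists, up to 3 called genes with the largest differences (for markers, the highest means); other list genes were named after their values were seen. Intervals are 95%. Floors of 3 reads allow for counting error only, because PCR copies were not marked by molecular identifiers. A few genes counted in the totals are not reported here by name.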

Additional observations from a re-analysis of the deposited data

How the results depend on the processing

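Of the 36 genes, 20 kept their direction and their side of the threshold under all 19 alternatives, and 16 changed under at least 1. The genes called numbered 6081 with an adjusted p under 0.01 and 9488 with array weights, against 7714, and of the 36 genes 20 and 33 were called under the same settings, against 26. Array weights did not reach their convergence tolerance. On leaving out 1 library, 21 to 28 of the 36 and 6612 to 7781 genes were called. With a filter at a mean of 5 CPM, 2 of the 36 were at least 2-fold lower in place of 5, since Esr1, Nr1d1 and Vdr lie under that filter. At an adjusted p under 0.01, Ncoa6, Ncor1, Nr2f1, Nr4a1, Nr4a2 and Rarg lost their calls. The direction of Ncoa5 turned with libraries centred on their median genes (-0.022) and without mNS replicate 1 or 2 or GL261 replicate 1 (from -0.062 to 0.087 over the 6 libraries left out). That of Nr2c2 turned with array weights (-0.026). Flt1 turned with columns at a common sum (0.046), with array weights (0.20) and without mNS replicate 3 or GL261 replicate 1 (from -0.18 to 0.20 over the 6 libraries left out). None of these 3 was called, and the cause was not tested. Columns at a common sum gave 58.2% of calls as higher over all genes (4456 higher and 3198 lower), against 50.1%, and 16 higher and 12 lower among the 36. With array weights 7 chaperones and 8 LXR targets were called, against 3 and 5. No paired analysis was possible because the labels give no replicate numbers and each passage stands alone. Precision is limited by 3 libraries a group and, for Vdr, Esr1 and Nr1d1, by few reads.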
